A study of Homo sapiens with 6 samples.

Results

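The 6 human DNA topoisomerases TOP1, TOP1MT, TOP2A, TOP2B, TOP3A and TOP3B, and the tyrosyl-DNA phosphodiesterases TDP1 and TDP2, were described by the RNA counts of their genes in a thyroid cell line exposed to the topoisomerase poison etoposide. They were taken by gene symbol, and these 8 symbols are 8 of the 22354 loci counted. Topoisomerases relieve the twisting and tangling of DNA by cutting it, holding the cut end through a tyrosine of the enzyme, and sealing it again. Etoposide stops the type II enzymes, TOP2A and TOP2B, before they seal, which leaves protein-linked double-strand breaks; TDP2 releases such 5′-linked tyrosines, and TDP1 releases the 3′-linked tyrosines left by TOP1. TOP2A is made mainly by dividing cells around mitosis, whereas TOP2B is also made by cells that no longer divide.

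RNA was sequenced from 6 libraries of HTori-3.1, an immortalised line from normal human thyroid. In 3 libraries the genotype is given as wild type (control), and in 3 as BMAL1 knockout, made with a virus carrying Cas9 and an sgRNA against BMAL1, puromycin selection and the picking of single clones. Every library came from cells given etoposide at 2 μM, so none of the groups shows the genes without the drug. The sample field gives 12 h of etoposide and the treatment protocol 24 h. The protocol also describes siRNA against BMAL1, which no title or genotype of these libraries names. How many clones the libraries stand for, and whether replicates were separate cultures, is not given, so p-values measure only the spread between these samples, which may be technical. The deposited counts summed to 26893063, 27029060 and 28513703 in control replicates 1, 2 and 3, and to 43148059, 29860233 and 43563391 in the replicates 1, 2 and 3 labelled BMAL1 knockout.

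BMAL1, the targeted clock gene, was counted 304, 326 and 409 times in the control libraries and 764, 603 and 860 times in those labelled BMAL1 knockout. As CPM, counts scaled to a common library total with the TMM factors of edgeR, this was 11.3, 12.2 and 14.6 CPM against 17.9, 19.8 and 19.4 CPM. BMAL1 RNA was therefore higher in all 3 libraries labelled knockout, against the direction of the label. The difference was 0.58 on the log2 scale (standard error, written SE from here on, of 0.11, adjusted p = 0.0204 in edgeR). That call held in 2 of 6 fits that each left out 1 library, where control replicate 3 or knockout replicate 1 was the library omitted. Over all 6 of these fits, adjusted p lay between 0.0168 and 0.113 in edgeR. BMAL1 shares 421 exon bases with an antisense gene that the table does not list, and neither a change in its sequence nor its protein can be read from counts; the study's methods check the knockout by western blot, and no protein data are among the deposited files. All directions below follow the labels, as libraries labelled BMAL1 knockout over control.

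Of the thyroid markers, PAX8 (133 ± 15.4 CPM in control, SD, n = 3) and FOXE1 (48.0 ± 0.717 CPM in control, SD, n = 3) were expressed. TG, TSHR and SLC5A5 were at most 0.485 CPM in any library, and NKX2-1 had 0 counts in all 6. Neither PAX8 (log2 fold change -0.28, adjusted p = 0.259 in edgeR) nor FOXE1 (-0.26, adjusted p = 0.139 in edgeR) was called, and the FOXE1 values in the libraries labelled knockout all lay below the controls. The PAX8 value ran from -0.43 without knockout replicate 3 to -0.18 without knockout replicate 1 when a library was left out. Of 6 epithelial markers, the keratins KRT8, KRT18 and KRT7 were abundant, at 1408 ± 41.4, 852 ± 9.45 and 710 ± 31.1 CPM in control (SD, n = 3), while EPCAM and CDH1 were near 0. The list summed to 2990, 3044 and 2897 CPM in control and 2540, 2482 and 2563 CPM in the libraries labelled knockout, with KRT8 the most abundant. All 3 libraries labelled knockout were below the controls for KRT8 (log2 fold change -0.28, adjusted p = 0.0507 in edgeR), which was called by DESeq2 (adjusted p = 0.00300), with assembled loci left out (0.0493 in edgeR) and with the GC trend described below removed (0.0236 in edgeR). Of the 6 fits that left out a library, KRT8 was called in 1, without knockout replicate 1 (adjusted p between 0.00662 and 0.253 in edgeR), and with the trend removed again in that 1 alone (0.000397 to 0.113 in edgeR). KRT7 and KRT19 had positive log2 fold changes, 0.10 and 0.23, and were not called (adjusted p = 0.540 and 0.426 in edgeR). KRT18 was lower in the libraries labelled knockout (log2 fold change -0.50, adjusted p = 0.00583 in edgeR), and this call was lost only without control replicate 2 among the 6 fits that left out a library (adjusted p between 0.000160 and 0.0524 in edgeR). With the trend removed as well, it was lost only without control replicate 3 (adjusted p = 0.0536 in edgeR). The 6 thyroid markers given here summed to 172, 173 and 200 CPM in control and 129, 149 and 172 CPM in the libraries labelled knockout, with PAX8 the most abundant. Of 6 fibroblast markers, COL1A1 alone was abundant (699 to 965 CPM), and DCN and LUM had 0 counts; endothelial markers summed to at most 2.21 CPM and C cell and parathyroid markers to at most 0.328 CPM in any library. Among leukocyte markers, which summed to 17.4 to 19.6 CPM in control and 11.4 to 13.8 CPM in the libraries labelled knockout with CD68 the most abundant, CD3E had 0 counts and PTPRC was lower (log2 fold change -1.43, adjusted p = 0.00127 in edgeR). The part of these differences in the results on topoisomerases was not tested.

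The promoters of TOP2A and TOP2B, the etoposide targets, are shown because the 2 genes differ most in level among the pairs of isoforms described here. RefSeq gave a promoter for 7 of the 8 genes, with 2 windows for TOP2B. The 250 bases before the start, 5′ to 3′ on the strand of the gene in GRCh38.p14, are chr17:40417897-40418146 on the reverse strand for TOP2A and chr3:25664908-25665157 on the reverse strand for TOP2B. Capitals mark CCAAT (a box bound by NF-Y in many cell cycle promoters) and TTTGAA (the core of the CHR element of G2/M genes), each on either strand, so that CCAAT also appears as ATTGG and TTTGAA as TTCAAA; no base belonged to matches of both motifs.
TOP2A: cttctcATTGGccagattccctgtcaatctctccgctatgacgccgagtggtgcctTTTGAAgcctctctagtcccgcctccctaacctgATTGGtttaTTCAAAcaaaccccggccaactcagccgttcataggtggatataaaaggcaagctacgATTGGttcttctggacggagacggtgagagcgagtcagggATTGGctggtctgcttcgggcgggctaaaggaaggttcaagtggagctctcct
TOP2B: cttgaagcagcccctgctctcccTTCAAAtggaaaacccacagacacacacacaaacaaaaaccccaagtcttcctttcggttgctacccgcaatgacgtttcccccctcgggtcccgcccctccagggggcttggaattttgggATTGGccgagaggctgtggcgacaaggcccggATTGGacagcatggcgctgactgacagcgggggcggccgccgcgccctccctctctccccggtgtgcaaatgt
TOP2A held 4 CCAAT and 2 TTTGAA matches, and the TOP2B window shown held 2 and 1. The other TOP2B window, which lies inside the gene, held neither motif. Of all 35116 promoter windows of this length, 32.0% held at least 1 CCAAT and 13.3% at least 1 TTTGAA; 0.874% held 4 or more CCAAT and 9.53% held 2 or more. The E-box CACGTG, the sequence that BMAL1 and CLOCK bind, was found in 6.34% of all windows and in none of the 8 windows of these genes. These matches describe letters only. In the TOP2B window, 32 bases lie in the annotated microRNA gene MIR4442.

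TOP2A had the highest level of the 8 genes per kilobase of exon. It took 802, 816 and 837 CPM in the control libraries and 908, 822 and 785 CPM in those labelled BMAL1 knockout. The highest and the lowest value both came from libraries labelled knockout, replicates 1 and 3, with all controls between them. Its log2 fold change was 0.04 (SE 0.076, 95% interval -0.13 to 0.20, adjusted p = 0.861 in edgeR), an interval of 0.913 to 1.15 as a linear ratio, and it was -0.02 once each library's trend with GC content was removed. TOP2A was then at 848, 851 and 798 CPM in control and 822, 840 and 806 CPM in the libraries labelled knockout, all of which lay between the lowest and the highest control. In RNA from bulk culture, the share of dividing cells and the TOP2A RNA in each cell cannot be told apart.

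TOP2B, the isoform that acts at transcribed genes in dividing and resting cells alike, measured 161, 159 and 160 CPM in control and 175, 166 and 156 CPM in the libraries labelled BMAL1 knockout. The controls lay within a narrow band, with a coefficient of variation of 0.677%, less than the SD of 1.53% that counting alone gives at the lowest count of this gene, and the libraries labelled knockout lay on either side of them (5.76%). Its log2 fold change was 0.05 (SE 0.073, 95% interval -0.11 to 0.21, adjusted p = 0.786 in edgeR) and -0.02 with the GC trend removed. TOP2B was then at 175, 168 and 150 CPM in control and 152, 172 and 162 CPM in the libraries labelled knockout, so that the narrow band of controls was lost and all of the latter lay between the lowest and the highest control. TOP2B lies on chromosome 3 of hg38 from 25597978 to 25664909 and TOP2A on chromosome 17 from 40388525 to 40417896.

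The balance of the etoposide targets within a library does not depend on how libraries are scaled. Per kilobase of merged exons, TOP2A exceeded TOP2B by 14.6, 15.0 and 15.3 times in the control libraries and by 15.2, 14.5 and 14.7 times in those labelled BMAL1 knockout. The ranges overlapped, and the ratio was much alike in all 6 libraries. TOP2A and TOP2B differ in GC content (38.9% and 35.9%), and the ratio was not taken with the GC trend removed. On the log2 scale the mean ratio was 3.90 ± 0.038 (SD, n = 3) in control and 3.89 ± 0.035 (SD, n = 3) in the libraries labelled knockout (two-sided exact permutation test, p = 0.7, where 3 libraries against 3 cannot go below 0.1). The merged exons of TOP2B, 18645 bases over all its transcripts, are longer than its longest transcript of 7848 bases; with longest transcripts the same ratio lay between 6.82 and 7.22 in the 6 libraries.

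**Figure D1:**
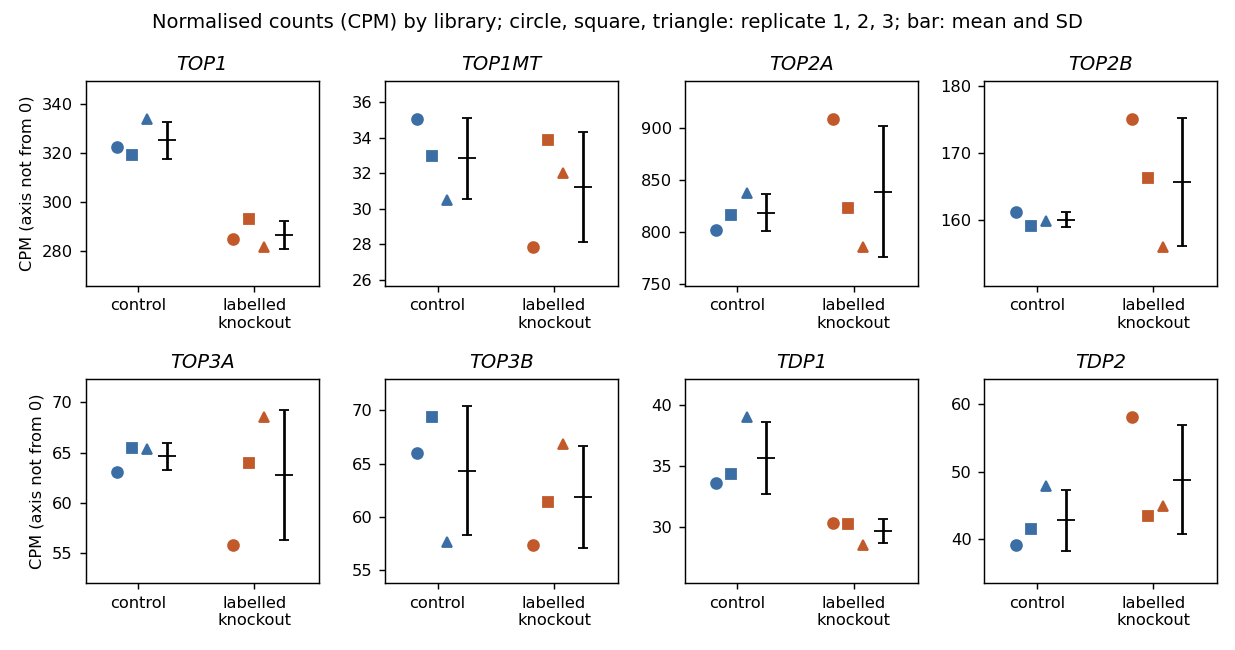
Normalised counts of each gene (CPM on the vertical axes, which do not start at 0) in the 3 control and 3 libraries labelled BMAL1 knockout, with replicates 1, 2 and 3 as circle, square and triangle and the mean and SD as a bar. The groups do not overlap for TOP1 and TDP1, and knockout replicate 1 is the highest library for TOP2A, TOP2B and TDP2.

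TOP1 and TDP1, the enzyme that nicks a single strand to relax supercoils and the enzyme that clears its trapped form, were the members whose groups did not overlap. TOP1 measured 322, 319 and 334 CPM in control and 285, 293 and 281 CPM in the libraries labelled BMAL1 knockout. All 3 libraries labelled knockout lay below every control. The log2 fold change was -0.18 (SE 0.069, 95% interval -0.33 to -0.03), with unadjusted p = 0.0212 and adjusted p = 0.199 in edgeR.

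TDP1 measured 33.7, 34.3 and 39.0 CPM in control and 30.3, 30.3 and 28.6 CPM in the libraries labelled BMAL1 knockout, from counts of 903 to 1295. TDP1 lies on chromosome 14 of hg38 from 89954939 to 90044764 and TOP1 on chromosome 20 from 41028822 to 41124487. Again each library labelled knockout was below each control, and control replicate 3 was the highest. The log2 fold change was -0.26 (SE 0.089, 95% interval -0.46 to -0.07), with unadjusted p = 0.0123 and adjusted p = 0.154 in edgeR. The values of TOP1 and TDP1 thus differed by more than the spread within groups, but not past the threshold of 0.05 after adjustment over the 14860 loci that passed the filter on low counts. All 8 genes passed that filter.

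At an adjusted p under 0.05, edgeR called 161 of these loci higher and 212 lower, together 2.51% of those tested, and 0 of the 8 genes were among them. With library size alone as the scale, the split was 185 higher and 155 lower. Leaving out 1 library moved the total of 373 to 166, 113 and 141 without control replicates 1, 2 and 3, and to 633, 162 and 249 without knockout replicates 1, 2 and 3. DESeq2 called 4.88% of the loci it adjusted and limma-voom 1.72%, and each called 0 of the 8 genes. At an unadjusted p under 0.05 there were 2 of the 8 genes, both lower, where edgeR had 7.78% of all loci lower and 16.9% in either direction. Groups without overlap, again 2 of 8 and both lower, were found for 11.5% of all loci in that direction and 23.3% in either direction, so that the share among the 8 genes is near the background.

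**Figure D2:**
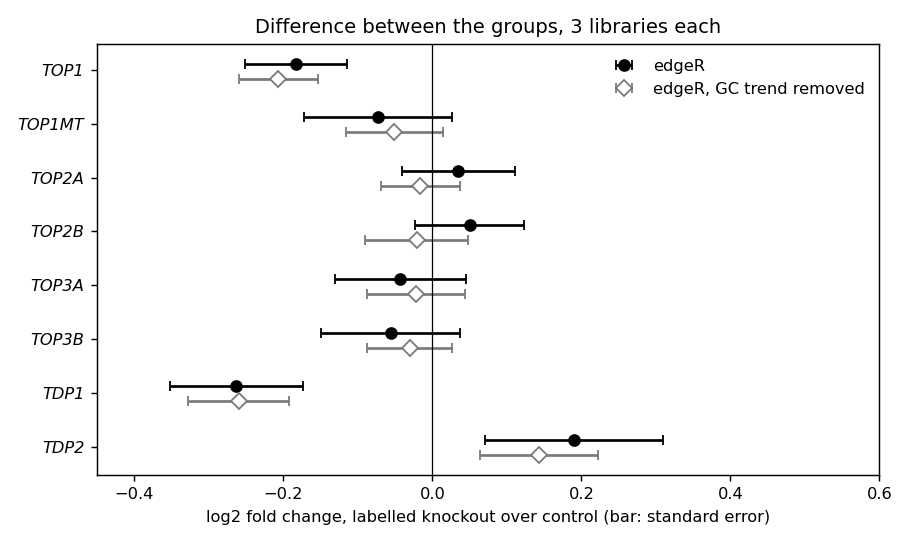
Log2 fold change of each gene (horizontal axis, libraries labelled BMAL1 knockout over control, 3 each) with its standard error, from edgeR (filled circles) and from edgeR with each library's GC trend removed (open diamonds). TDP1 and TOP1 lie below 0 in each fit, TDP2 above it, and TOP2A and TOP2B change sign between the fits.

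The sequence before RefSeq's start of TOP1 and TDP1 is shown for the pair of genes whose groups did not overlap. In GRCh38.p14, RefSeq's 250 bases are chr20:41028572-41028821 on the forward strand for TOP1 and chr14:89955677-89955926 on the forward strand for TDP1, where 26 bases lie in annotated exons of TDP1. This TDP1 window lies inside the span given above, past its first base at 89954939, so RefSeq's start is a later one. Capitals mark TTTGAA on either strand, found once in TDP1.
TOP1: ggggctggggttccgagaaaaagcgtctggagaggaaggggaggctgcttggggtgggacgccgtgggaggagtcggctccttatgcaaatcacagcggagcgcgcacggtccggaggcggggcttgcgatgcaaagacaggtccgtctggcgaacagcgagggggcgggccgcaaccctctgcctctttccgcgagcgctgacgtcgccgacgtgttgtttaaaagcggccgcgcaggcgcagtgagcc
TDP1: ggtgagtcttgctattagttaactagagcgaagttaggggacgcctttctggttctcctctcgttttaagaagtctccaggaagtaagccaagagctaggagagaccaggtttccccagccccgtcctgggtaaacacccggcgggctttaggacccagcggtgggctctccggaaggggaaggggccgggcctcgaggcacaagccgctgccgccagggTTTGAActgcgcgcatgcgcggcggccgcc
Neither window held CCAAT or the E-box CACGTG, unlike the 4 CCAAT matches of TOP2A. The absence of a match says only that these letters are not in this window.

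The 8 genes differed in GC content, and the libraries differed in how their counts varied with it. The longest transcripts of TOP2B, TOP2A, TDP2, TOP1 and TDP1 had 35.9%, 38.9%, 40.1%, 42.8% and 45.4% GC, under the median of 48.1% over 13578 loci with a known value, and those of TOP3A, TOP1MT and TOP3B had 52.0%, 58.1% and 59.6%. Knockout replicate 1 stood apart from the other libraries labelled knockout: its counts differed from theirs by 31 and 45 times the variance that counting gives, against 7.43 times between replicates 2 and 3 and 5.41 to 14.5 times between controls. Deviations of single loci in that library from the mean of all 6 libraries were correlated with GC content across loci (Spearman's rho -0.48, a description, since loci are not independent), and those of control replicate 3 likewise (-0.41), while the other 4 libraries had values of 0.22 to 0.41. Because the mean is shared, negative values in some libraries push those of the others up, so the positive values are not a separate observation. On the log2 scale, knockout replicate 1 lay above the mean of replicates 2 and 3 by 0.39 for TDP2, 0.18 for TOP2A and 0.12 for TOP2B, and it differed by -0.25 for TOP3A, -0.24 for TOP1MT and -0.16 for TOP3B. It was the highest of the 6 libraries for 3 genes and the lowest for 3 others. TOP1 and TDP1, of intermediate GC content, differed there by -0.01 and 0.05.

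**Figure D3:**
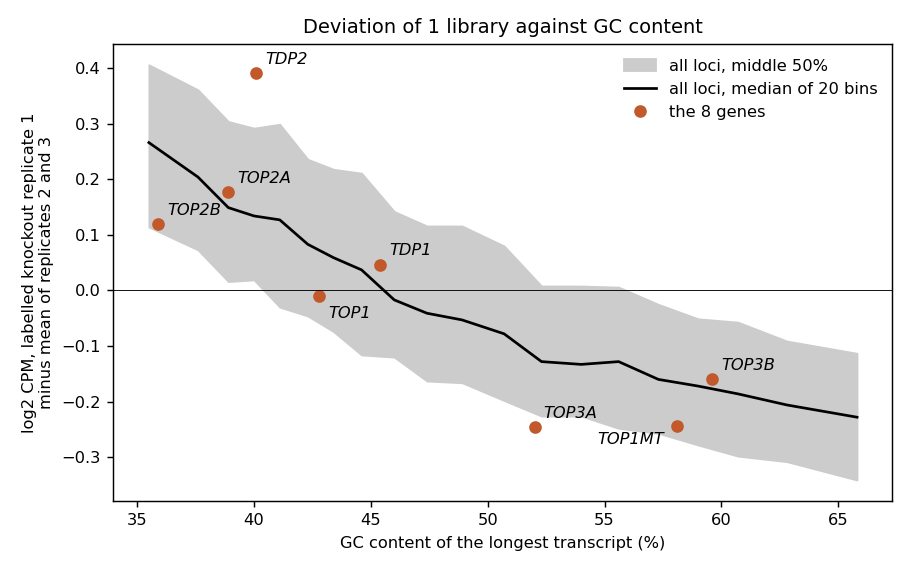
Deviation of the library labelled knockout replicate 1 from the mean of replicates 2 and 3 (vertical axis, log2 CPM) against GC content of the longest transcript (horizontal axis, %), for the 8 genes and for 13578 loci in 20 bins (line, median; band, middle 50%). TDP2 lies above the band at 0.39, TOP3A at -0.25 just below it, and the line falls from 0.27 to -0.23.

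With each library's GC trend removed, edgeR called 2 of the 8 genes, TOP1 and TDP1, both lower, where it called 4.08% of all loci lower and 7.46% in either direction. TOP1 was then at 332, 326 and 324 CPM in control and 270, 295 and 285 CPM in the libraries labelled knockout. The groups stayed apart, and the log2 fold change was -0.21 (SE of 0.053, adjusted p = 0.0399 in edgeR with the trend removed). The TOP1 values of the libraries labelled knockout were less alike than before. Replicate 1 differed from the mean of replicates 2 and 3 by -0.102 on the log2 scale, against -0.010 with the trend kept. TDP1 was at 33.9, 34.6 and 38.3 CPM in control and 30.0, 30.4 and 28.9 CPM in the libraries labelled knockout, with a log2 fold change of -0.26 (SE of 0.068, adjusted p = 0.0439 in edgeR with the trend removed). With the trend kept, the TDP1 value was also -0.26, with an SE of 0.089, and edgeR called 2.51% of all loci. Fits that left out 1 library as well were an alternative chosen after seeing the data. In these, adjusted p was under 0.05 in 1 of 6 for each gene, the fit without knockout replicate 1 (0.0110 for TOP1 and 0.0326 for TDP1 in edgeR). That fit called 12.0% of all loci. Adjusted p in edgeR lay between 0.0719 and 0.152 for TOP1 and between 0.0868 and 0.144 for TDP1 in the other 5.

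TDP2, which clears the TOP2 adducts that etoposide leaves, had the highest log2 fold change of the 8 genes. It measured 39.2, 41.5 and 47.8 CPM in control and 58.0, 43.5 and 45.0 CPM in the libraries labelled BMAL1 knockout. A single library, knockout replicate 1, was high; replicates 2 and 3 lay within the range of the controls. The log2 fold change of 0.19 (SE 0.12, 95% interval -0.07 to 0.45, adjusted p = 0.458 in edgeR) was 0.04 without that library. No difference in TDP2 beyond the spread between replicates was detectable, although the interval allows a ratio of up to 1.37. TDP2 lies on chromosome 6 from 24649979 to 24666930.

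TOP3A and TOP3B, type IA enzymes that pass single strands and, for TOP3B, also act on RNA, overlapped between the groups. TOP3A ranged from 63.1 to 65.5 CPM in control and from 55.8 to 68.5 CPM in the libraries labelled BMAL1 knockout, where replicate 1 was the lowest and replicate 3 the highest of all 6. Its log2 fold change was -0.04 (95% interval -0.23 to 0.15, adjusted p = 0.855 in edgeR). TOP3B ranged from 57.7 to 69.4 CPM and from 57.4 to 66.8 CPM, with a log2 fold change of -0.06 (95% interval -0.26 to 0.15, adjusted p = 0.816 in edgeR). TOP3B shares 6024 exon bases with PPM1F-AS1, an antisense gene that the table does not list; whether counting used strand is not given in the sources used here, so the level of TOP3B is uncertain. TOP1 shares 204 exon bases with the antisense gene PLCG1-AS1, also unlisted.

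TOP1MT, the nuclear gene for the topoisomerase of mitochondria, had the lowest count, 854 in control replicate 3, where counting alone gives an SD of 3.42%. It ranged from 30.5 to 35.0 CPM in control and from 27.8 to 33.9 CPM in the libraries labelled BMAL1 knockout. The ranges overlapped, and the log2 fold change was -0.07 (95% interval -0.29 to 0.14, adjusted p = 0.767 in edgeR).

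Levels can be compared between genes only per length. Per kilobase of merged exons, TOP2A had rank 178 of 13578 loci with a known length, by the mean of all 6 libraries. In control TOP2A stood at 128 ± 2.81 CPM per kb (SD, n = 3) and TOP1 at 32.1 ± 0.746 CPM per kb (SD, n = 3). TDP2 came next at 14.4 ± 1.51 CPM per kb, then TOP3B at 9.69 ± 0.907, TOP2B at 8.58 ± 0.058, TOP3A at 7.86 ± 0.164, TDP1 at 5.73 ± 0.467 and TOP1MT at 5.11 ± 0.354 CPM per kb (each control, SD, n = 3). Over all 6 libraries TOP2A lay above TOP1, TOP1 above TDP2, TDP2 above TOP3B, TOP2B above TOP3A and TOP3A above TDP1 with no overlap of their ranges. TOP3B and TOP2B overlapped, as did TDP1 and TOP1MT, with TDP1 the higher in 3 of 6 libraries.

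The lower part of this order depended on the length used. Per kilobase of the longest transcript, TOP2B stood at 20.4 ± 0.138 CPM per kb in control (SD, n = 3), beside TDP2 at 20.2 ± 2.12 CPM per kb, and TOP1MT stood at 16.2 ± 1.12 CPM per kb. TOP2A at 144 ± 3.15 and TOP1 at 40.2 ± 0.933 CPM per kb kept the top of the order on each scale.

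**Figure D4:**
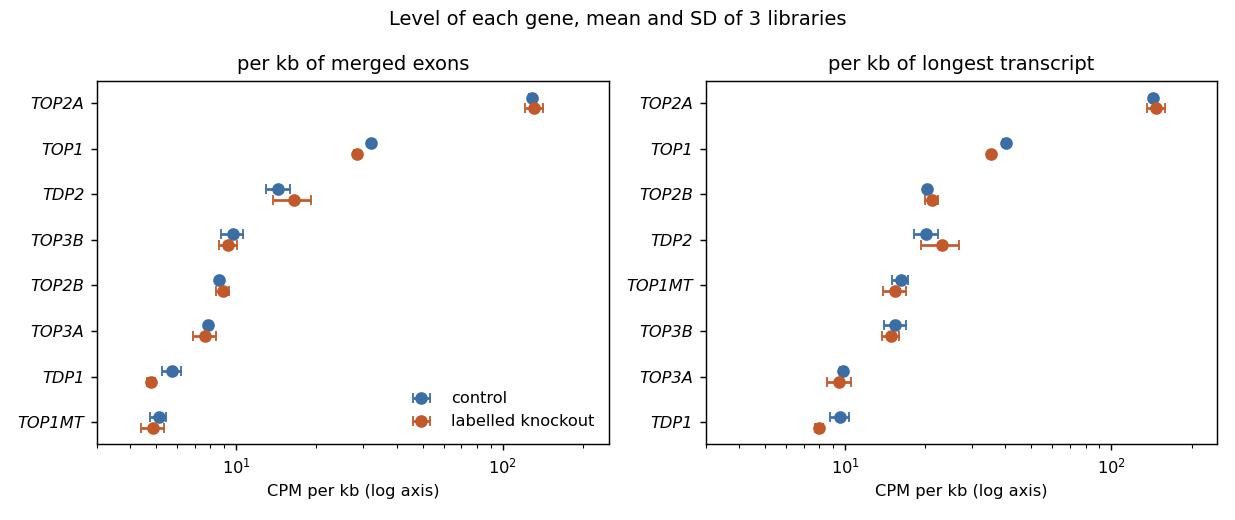
Level of the 8 genes as CPM per kb on a log axis, mean and SD of 3 libraries in each group, with length taken from merged exons (left) and from the longest transcript (right). TOP2A leads at 128 and 144 CPM per kb in control, where the order from the third place down differs between the panels. In the libraries labelled knockout, TDP2 holds the third place in both panels, and the order below it differs.

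Across the 6 libraries, the genes with log2 CPM most like TOP2A by Pearson's r, among 12478 others with a mean of at least 1 CPM, were USP8 (r = 0.997), SGO2 (0.996) and PNRC2 (0.992). For TOP2B they included ENSG00000285304 (0.999) and GOT1 (0.990), and for TDP2 they were THAP1 (0.997), CISD1 (0.997) and NSL1 (0.996). Each gene named was highest in knockout replicate 1, as TOP2A, TOP2B and TDP2 were. The longest transcripts of those named for TOP2A and TDP2 had 33.8% to 41.1% GC. That of GOT1 had 48.9% and that of ENSG00000285304 had 60.8%. ENSG00000285304 was at a low level, from 1.17 CPM in knockout replicate 3 to 10.6 CPM in knockout replicate 1. The points share their libraries, so these values describe the 6 libraries only.

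Around the 8 genes, 7 lists of 74 genes were examined (the most abundant gene of each is that with the highest mean CPM, not divided by length), and edgeR called 0 of the 74 at an adjusted p under 0.05, against 2.51% of all loci. At an unadjusted p under 0.05 there were 8, 4 higher and 4 lower, against 16.9% of all loci in either direction. DESeq2 called 1, CDK1, against 4.88% of the loci it adjusted, and limma-voom 0, against 1.72%. The median log2 fold change was -0.05 for the 8 genes and 0.01 for all loci tested. With the GC trend removed, edgeR called 4 of the 74, against 7.46% of all loci: APLF, TFAM and CDK1 higher and RAD21 lower. Without knockout replicate 1 it called 3, XRCC5, RNF4 and CCNB1, all lower, against 4.21% of all loci. Without any other single library it called 0, against 0.747% to 1.66% of all loci. With the trend removed and knockout replicate 1 left out, chosen after seeing the data, it called 14, 4 higher and 10 lower, against 12.0% of all loci. The 4 were CDK1, TFAM, FAM111A and SMC4, and the 10 were RNF4, CCNB1, AURKA, RAD21, XRCC5, SSBP1, PLK1, BUB1, POLG and NCAPG. With the trend removed and knockout replicate 3 left out, 3 were called (CDK1 higher, RAD21 and POLG lower, against 5.46% of all loci). Also with the trend removed, CDK1 alone was called without knockout replicate 2 (2.56%), and 0 without a control replicate (2.29% to 2.58%).

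Of 19 genes that remove trapped complexes by other routes, 8 had a positive and 11 a negative log2 fold change, with a median of -0.01. RNF4, a ubiquitin ligase for SUMO-marked proteins, measured 88.7, 88.3 and 79.0 CPM in control and 33.3, 67.7 and 69.9 CPM in the libraries labelled BMAL1 knockout. All 3 of the latter were lower, replicate 1 by far the most. RNF4 had a log2 fold change of -0.58 (SE of 0.30, adjusted p = 0.407 in edgeR), and without knockout replicate 1 the value was -0.31 and called (adjusted p = 0.0328 in edgeR, the lowest of the 6 fits that left out a library; the highest was 0.675). FAM111A, a protease for trapped proteins on DNA, had the highest value, 0.18, and VCP, the segregase that pulls proteins from complexes, was the most abundant, with a log2 fold change of -0.16; neither was called with all 6 libraries.

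Of 8 partners of TDP1 in single-strand break repair, 3 were positive and 5 negative, with a median of -0.04. APLF, a histone chaperone and accessory factor of end joining, measured 4.88, 4.45 and 4.86 CPM in control and 7.73, 6.09 and 6.61 CPM in the libraries labelled BMAL1 knockout. Every library labelled knockout was higher, at a low level. For APLF the log2 fold change was 0.53 (SE of 0.14, adjusted p = 0.0797 in edgeR) and 0.46 with the GC trend removed (adjusted p = 0.0445 in edgeR), a call that was lost whichever library was left out (0.0715 to 0.141). PARP1, the break sensor, was the most abundant and the lowest at -0.13.

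Of 10 end joining factors that act after TDP2, 5 were positive and 5 negative, with a median of -0.02. The highest was DCLRE1C at 0.12, the nuclease Artemis, and the lowest was PRKDC at -0.17, the catalytic subunit of DNA-dependent protein kinase and the most abundant of the list. Among 5 partners of the type IA enzymes the median was 0.02, with BLM, the helicase of the TOP3A complex, at 0.20, RMI2 at -0.16, and the most abundant, FMR1, at -0.06. With all 6 libraries none of the genes of these 2 lists was called. XRCC5, the Ku80 subunit that binds broken ends, measured 737, 765 and 782 CPM in control and 852, 653 and 667 CPM in the libraries labelled BMAL1 knockout. Replicate 1 was the highest of all 6, and replicates 2 and 3 were below the controls. XRCC5 had a log2 fold change of -0.07 (adjusted p = 0.772 in edgeR), and without knockout replicate 1 the value was -0.21 and called (adjusted p = 0.0424 in edgeR; the highest of the 6 fits that left out a library was 0.996).

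Of 7 genes that maintain mitochondrial DNA, where TOP1MT acts, 3 were positive and 4 negative, with a median of -0.03. TFAM, which packages that DNA, measured 130, 132 and 148 CPM in control and 194, 151 and 149 CPM in the libraries labelled BMAL1 knockout. The groups did not overlap, though replicates 2 and 3 were close to control replicate 3. TFAM had a log2 fold change of 0.27 (adjusted p = 0.210 in edgeR), 0.14 without knockout replicate 1 (adjusted p = 0.326 in edgeR) and 0.20 with the GC trend removed (adjusted p = 0.0464 in edgeR), called in 1 of the 6 fits that then left out a library, without knockout replicate 1 (adjusted p between 0.0217 and 0.156). POLG, the mitochondrial polymerase, was the lowest at -0.22 and not called with all 6 libraries.

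Of 12 mitotic genes that share the G2/M expression of TOP2A, 3 were positive and 9 negative, with a median of -0.04. CDK1, the kinase that drives entry into mitosis, measured 217, 230 and 253 CPM in control and 402, 279 and 270 CPM in the libraries labelled BMAL1 knockout. Its groups did not overlap, with replicate 1 far above the rest. For CDK1 the log2 fold change was 0.44 (SE of 0.14, adjusted p = 0.122 in edgeR). It was called by DESeq2 (adjusted p = 0.0235) and with the GC trend removed (0.37, adjusted p = 0.0251 in edgeR). The latter call held in 3 of the 6 fits that left out a library, those without a library labelled knockout. Over all 6 of these fits, adjusted p ran from 0.00150 to 0.106 in edgeR. Without knockout replicate 1 the CDK1 value in edgeR was 0.23 (adjusted p = 0.0896). CCNB1, the cyclin partner of CDK1, measured 393, 386 and 376 CPM in control and 457, 329 and 323 CPM in the libraries labelled knockout, where replicate 1 lay above and the others below every control. Its log2 fold change was -0.06 (adjusted p = 0.856 in edgeR) and -0.24 without knockout replicate 1, where it was called (adjusted p = 0.0277 in edgeR, against up to 0.966 without another library). The sign of the CCNB1 value turned without knockout replicate 2 (0.02) or 3 (0.03). MKI67, the proliferation marker, was the most abundant, from 1004 to 1020 CPM in control and from 942 to 1107 CPM in the libraries labelled knockout, and PLK1 was the lowest at -0.21. With the GC trend removed and knockout replicate 1 left out, 5 of the 12 were called in edgeR, against 12.0% of all loci. CDK1 was higher (0.25), and CCNB1 (-0.23), AURKA (-0.21), PLK1 (-0.17) and BUB1 (-0.16) were lower. Of these, CDK1 alone was called in any of the other 5 such fits. The list summed to 4014, 4036 and 3974 CPM in control and 4229, 3994 and 3813 CPM in the libraries labelled knockout, which overlap.

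Of 13 condensin and cohesin subunits, which shape the chromosomes on which TOP2A works, 8 were positive and 5 negative, with a median of 0.00. RAD21, the cleavable subunit of cohesin, measured 365, 365 and 416 CPM in control and 358, 325 and 327 CPM in the libraries labelled BMAL1 knockout. All 3 were below the controls, replicate 1 by little. RAD21 had a log2 fold change of -0.18 (adjusted p = 0.280 in edgeR) and -0.25 with the GC trend removed (adjusted p = 0.0211 in edgeR). The latter call held in 2 of the 6 fits that left out a library, those without knockout replicates 1 and 3. Over all 6 of these fits, adjusted p ran from 0.00334 to 0.0985 in edgeR. Without control replicate 3, its highest library, and with the trend kept, the RAD21 value was -0.11. SMC3 was the highest at 0.18, and NCAPD2 was the most abundant, with a log2 fold change of 0.00.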

How the data were processed

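The authors deposited a table of counts per gene and library, made from filtered reads with a single place in hg38; the submitters' notes name fastp 0.20.1 and HISAT2 2.0.4. Annotation and strand are not given in the sources used here. Columns were matched to samples by name.

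TMM-scaled CPM were computed from the deposited counts with edgeR 4.0.16 (R 4.3.3), as were log2 fold changes with two-sided quasi-likelihood p-values (robust fit, default low-count filter), adjusted by the Benjamini-Hochberg method over 14860 loci. Standard errors are the size of the log2 fold change over the root of F, and log2 CPM used a prior count of 2. Exon lengths, overlaps and GC content came from GENCODE v44, matched by symbol for 20018 of 22354 loci; GC content was known for 91.4% of loci tested. Promoters came from RefSeq in GRCh38.p14.

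Alternatives were median-of-ratios factors, library size only, no filter, at least 10 counts in every library, DESeq2 1.42.0, limma-voom 3.58.1, a replicate block, each library left out, thinning to the smallest total, removal of each library's GC trend (lowess, span 0.3) and leaving out assembled loci. The fits were tested on simulated data; other steps were not.

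The members and lists were chosen with earlier results of these data known. Of each list, genes past the threshold and those with the highest and lowest log2 fold change and the highest mean CPM were named, plus the 3 genes most like TOP2A, TOP2B and TDP2; some genes are not reported here. APLF, TFAM, CDK1, RAD21, RNF4, XRCC5, CCNB1, KRT8 and the genes called without knockout replicate 1 were described under the alternatives after their values were seen.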

Additional observations from a re-analysis of the deposited data

How the results depend on the processing

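Of 128 values of the 8 genes over 16 alternatives, 2 passed the threshold: TOP1 (-0.21) and TDP1 (-0.26) with the GC trend removed. TOP1 stayed between -0.24 and -0.15 and TDP1 between -0.30 and -0.19 over all 22 alternatives, including the 6 chosen after seeing the data, where both were past it without knockout replicate 1 (-0.17 and -0.27). That fit called 12.0% of all loci, against 7.46% with the GC trend removed and all libraries kept. TDP2 stayed between 0.04 and 0.28. Signs of values near 0 changed: with the GC trend removed for TOP2A (-0.016) and TOP2B (-0.021), and among the fits that left out a library, whose values ran from -0.134 to 0.0029 for TOP1MT, -0.028 to 0.080 for TOP2A, -0.112 to 0.034 for TOP3A and -0.126 to 0.0016 for TOP3B. The difference in the log2 ratio of TOP2A to TOP2B, -0.016, ran from -0.036 to 0.0018 when a library was left out. The cause of these changes was not tested.

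Over all loci, 161 were higher and 212 lower. DESeq2 gave 310 and 387, limma-voom 102 and 153, and removal of the GC trend 502 and 607; the cause was not tested. Without 1 library the counts ran from 46 to 293 higher and from 67 to 340 lower, with fewer samples in each fit. Same-numbered libraries did not vary together (correlations of their deviations from the group means -0.090, -0.052 and -0.005). Whether they were handled in pairs is not given. With the replicate block 132 were higher and 145 lower, and 0 of the 8 genes were called (TDP1 -0.26, TOP1 -0.18).

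Limits: 3 libraries a group, all with etoposide; no cell counts; RNA, not enzyme activity.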
